A study of Mus musculus with 6 samples.

Results

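The genes described here are Cd79a, Cd79b, Ms4a1, Pax5, Cd22, Cr2, Blnk, Pou2f2 and Btk, 9 genes of B cell identity and of signalling from the B cell antigen receptor, out of 561 genes counted on a NanoString mouse immunology panel. They were chosen by symbol, through the RefSeq transcript identifier of each panel row, and all 9 were found and passed the filter on low values. Splenocytes of female NZB/WF1 mice, hybrids prone to a disease that resembles lupus, gave the RNA. The mice carried an implant of 17-beta estradiol (E2), the natural estrogen, of 17alpha-ethinyl estradiol (EE), a synthetic estrogen that carries an added ethinyl group, or an empty placebo implant. Implants were placed at 6 to 7 weeks of age and tissue was taken 9 weeks later, with 2 samples per group. All mice shared the lupus-prone background, no strain without it was included, and the labels state no implant dose. The labels do not say whether each sample was 1 mouse or a pool. A p-value here sets the difference between groups against the spread within groups. That spread is pooled over all groups and drawn in part from other genes, and it may be technical.

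B cells recognise antigen with a surface immunoglobulin that cannot signal by itself. It is held in a complex with the chains encoded by Cd79a and Cd79b, whose tails are phosphorylated on engagement and recruit the kinase encoded by Syk, and the adaptor encoded by Blnk then brings the kinase encoded by Btk to its targets. The product of Cr2 is a complement receptor that lowers the threshold of activation, and the product of Cd22 is a sialic acid-binding receptor that raises it by recruiting the phosphatase encoded by Ptpn6. Pax5 encodes the transcription factor that keeps B cells committed to their lineage, Pou2f2 encodes a factor that binds the octamer motif, and Ms4a1 encodes a membrane protein of mature B cells that is the target of depleting antibodies. Btk is also expressed in myeloid cells and Cr2 in follicular dendritic cells, so neither is a marker of B cells alone.

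The promoters of Cd79a, Cd22 and Blnk are shown because Cd79a and Cd22 were among the genes with the largest differences and because Blnk held the octamer motif that the product of Pou2f2 binds. Each line gives the 250 bases before the transcription start, 5′ to 3′ on the gene's strand, from RefSeq on build GRCm38.p6, and capitals mark the motif matches. The Cd79a stretch lies at chr7:24897247-24897496 on the plus strand, that of Cd22 at chr7:30879029-30879278 on the minus strand and that of Blnk at chr19:40994222-40994471 on the minus strand.
Cd79a: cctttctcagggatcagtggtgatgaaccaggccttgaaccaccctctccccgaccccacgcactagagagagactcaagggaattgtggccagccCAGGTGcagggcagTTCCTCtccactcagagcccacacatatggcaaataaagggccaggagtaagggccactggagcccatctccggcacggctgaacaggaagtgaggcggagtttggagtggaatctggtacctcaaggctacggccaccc
Cd22: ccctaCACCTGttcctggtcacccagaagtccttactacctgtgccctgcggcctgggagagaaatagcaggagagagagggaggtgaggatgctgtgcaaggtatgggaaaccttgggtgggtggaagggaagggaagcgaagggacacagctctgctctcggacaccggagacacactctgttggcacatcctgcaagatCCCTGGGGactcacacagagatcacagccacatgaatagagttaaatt
Blnk: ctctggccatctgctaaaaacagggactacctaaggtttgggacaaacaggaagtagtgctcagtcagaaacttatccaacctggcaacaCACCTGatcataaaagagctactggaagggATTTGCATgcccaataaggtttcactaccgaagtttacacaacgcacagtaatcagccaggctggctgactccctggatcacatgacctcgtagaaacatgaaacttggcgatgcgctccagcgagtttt
Promoters were matched for 7 of the 9 genes, all but Cd79b and Ms4a1. The windows searched ran from 250 bases before to 50 after the start, on both strands, and the motifs were chosen with the results known. The octamer ATGCAAAT occurred in 1 of the 7 windows, that of Blnk, 130 bases before the start, and in 1.74% of the 32851 promoter windows of the table. The E-box CAGGTG, a site of E proteins, which act in early B cell development, occurred in 4 of 7, those of Cr2, Cd79a, Cd22 and Blnk, and in 20.2% of all windows. CCCNNGGG, the core of the site of early B cell factor, occurred in 1 of 7, that of Cd22, and in 13.7% of all. GAGGAA, the core of sites of the myeloid and lymphoid factor PU.1, occurred in 3 of 7, those of Cd79a, Pou2f2 and Btk, and in 28.3% of all. None of these matches overlapped another motif in these stretches. The estrogen response element GGTCANNNTGACC occurred in 0 of the 7 and in 0.07% of all windows, which says only that these letters are not in these windows.

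The deposited values were barcode counts scaled within each sample on the panel's reference genes, genes assumed to be steady, and then rounded. A value is therefore read relative to the reference genes of its sample. Gene totals were 646299 to 863942 per sample, and the background, set 2 SD above the average negative control, was 10.1 to 13.7. The B cell genes exceeded it in every sample, as did Cd3e, a defining T cell gene, at 611 to 2278, so the main lymphocytes of spleen were present. Both estrogens also came with large differences outside B cells: the summed level of 7 neutrophil genes was 182974 and 208627 in E2, 81860 and 93638 in EE, and 9470 and 5811 in placebo, and that of 8 erythroid, megakaryocyte and platelet genes was 16023 to 21322 under the estrogens and 2503 to 3239 in placebo. The median tested gene was itself below placebo, at a log2 fold change of -0.56 in E2 and -0.69 in EE. Rescaling the samples on the centre of the panel, as a trimmed mean over genes, brought these medians to -0.02 and -0.04. At a limma adjusted p under 0.05, 1 of the 12 named reference genes was lower and 2 were higher in E2. In EE 2 were lower and 3 higher. Of all tested genes 59.5% were lower and 12.5% higher in E2, and 63.9% and 15.5% in EE. With the trimmed mean 0 of the 12 were lower, and 8 in E2 and 10 in EE were higher. Which scale lies closer to the RNA of the samples was not tested. Each fold change below is therefore given on the reference scale and, where it matters, relative to the panel. The part of the other cell types in the differences of the B cell genes was not tested.

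All 9 B cell genes were lower in both E2 samples and both EE samples than in both placebo samples, as were 67.6% of the 457 tested genes in E2 and 70.0% in EE. Every group mean of the 9 stood in the order placebo, E2, EE. Cd22, Cd79a and Pax5 differed most, at less than 50% of the placebo level under either estrogen, while Ms4a1 and Btk differed least. Together the 9 genes took 4.63% and 4.73% of the gene total in placebo, 3.35% and 2.94% in E2, and 3.19% and 3.16% in EE. In placebo replicate 22 Ms4a1 and Cd79b held 16327 and 10566 of the summed 38081, so the shares describe mainly these genes. The gene total includes the 7 neutrophil genes. These took 1.15% and 0.673% of it in placebo, 22.6% and 27.05% in E2, and 12.7% and 13.9% in EE. The part of the neutrophil genes in the B cell shares was not tested. In RNA from whole splenocytes, fewer B cells and less of these transcripts per B cell cannot be told apart.

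**Figure D1:**
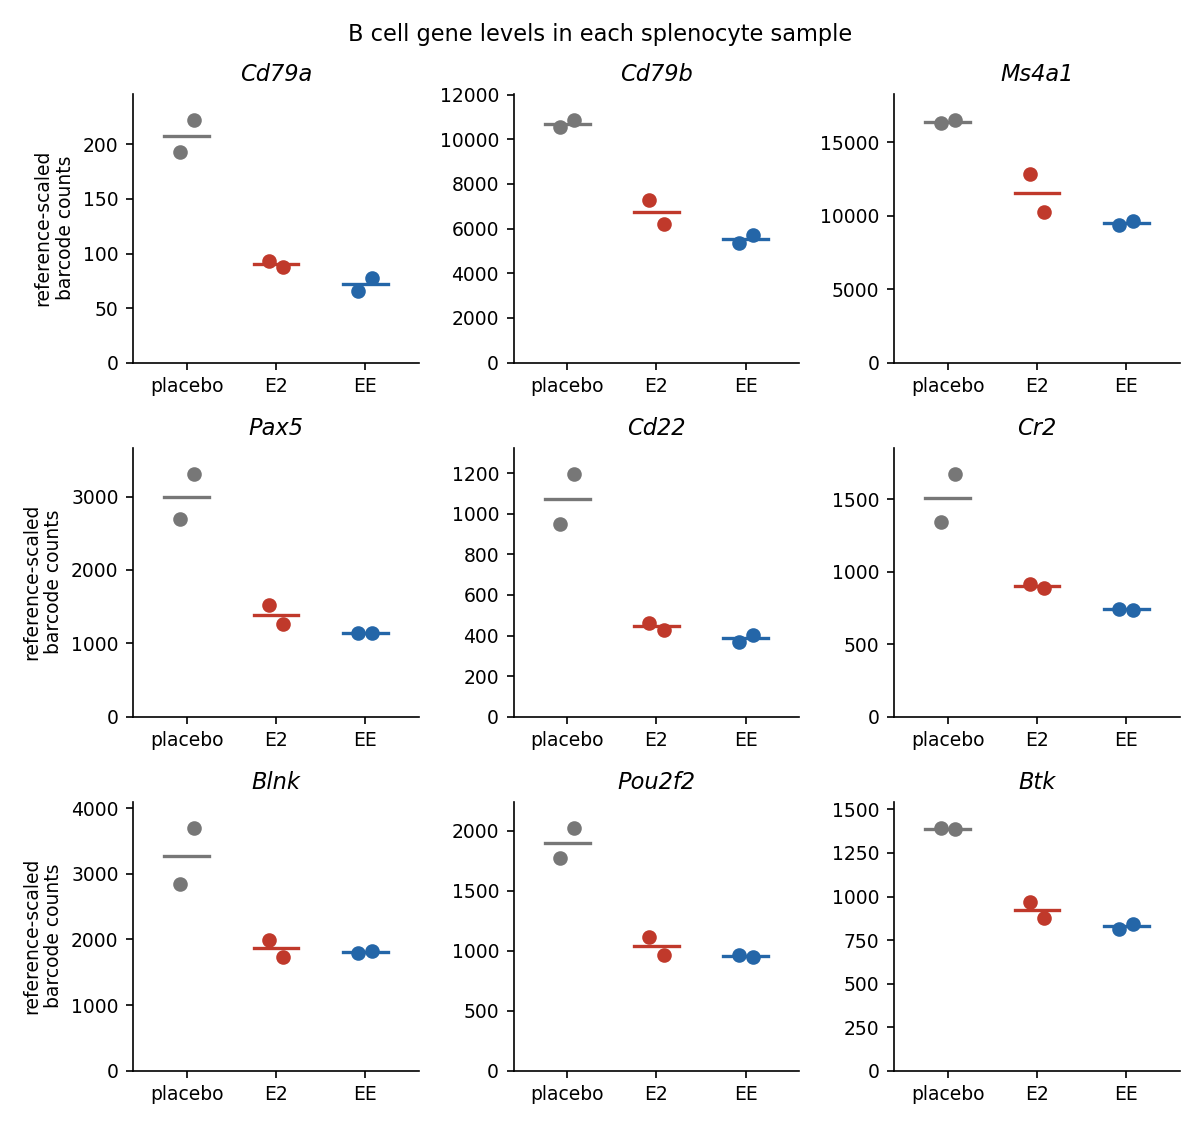
Reference-scaled barcode counts of the 9 B cell genes, with 1 point per sample, a line at each group mean, 2 samples per group and each vertical axis starting at 0. In every panel both placebo points lie above all 4 estrogen points, with Cd79a at 193 and 222 in placebo and 66 to 93 under the estrogens.

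Of the receptor's signalling chains, Cd79a counted 193 and 222 in placebo, 93 and 88 in E2, and 66 and 78 in EE. The groups did not overlap, and the lowest sample stood well above the background. The level was 2.27-fold lower in E2 (log2 fold change -1.19 ± 0.15 SE, limma adjusted p = 3.33e-04) and 2.86-fold lower in EE (-1.52 ± 0.15, adjusted p = 7.96e-05). Its partner Cd79b counted 10566 and 10843 in placebo, 7275 and 6221 in E2, and 5364 and 5707 in EE. The placebo samples were close together and the 4 estrogen samples lay well below them. Cd79b was 1.59-fold lower in E2 (-0.67 ± 0.15, adjusted p = 0.00322) and 1.93-fold lower in EE (-0.95 ± 0.15, adjusted p = 3.97e-04).

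The estimates for the chains were unequal, and their ratio, given as a description with no test, does not depend on how samples are scaled. The number of Cd79a counts per 100 of Cd79b was 1.83 and 2.05 in placebo, 1.28 and 1.41 in E2, and 1.23 and 1.37 in EE. Both estrogen groups lay below placebo and overlapped each other. With the negative-control mean subtracted the ratio was 1.76 and 1.999 in placebo, 1.20 and 1.32 in E2, and 1.097 and 1.23 in EE, in the same order. Probes differ in yield, so the ratio is read between samples and not as a stoichiometry.

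The adaptor gene Blnk counted 2847 and 3691 in placebo, 1990 and 1739 in E2, and 1795 and 1823 in EE. Its placebo samples were the farthest apart of the 9 genes relative to their mean of 3269 ± 597 (SD, n = 2), and both exceeded every estrogen sample. Blnk was 1.74-fold lower in E2 (-0.80 ± 0.17, adjusted p = 0.0026) and 1.79-fold lower in EE (-0.84 ± 0.17, adjusted p = 0.00152). Btk, the kinase next in the chain, counted 1391 and 1386 in placebo, 967 and 874 in E2, and 815 and 843 in EE. Its placebo samples were nearly equal, and the gap to the estrogen samples was smaller than for most of the other genes. Btk was 1.51-fold lower in E2 (-0.59 ± 0.14, adjusted p = 0.00444) and 1.67-fold lower in EE (-0.74 ± 0.14, adjusted p = 0.00107).

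Among the co-receptors, the inhibitory receptor gene Cd22 counted 950 and 1194 in placebo, 463 and 428 in E2, and 369 and 403 in EE. Both placebo samples were more than 2-fold above every estrogen sample. Cd22 fell by 1.26 ± 0.16 on the log2 scale in E2 (adjusted p = 3.10e-04) and by 1.46 ± 0.16 in EE (adjusted p = 8.90e-05). The complement receptor gene Cr2, whose product works in the opposite direction to that of Cd22, counted 1343 and 1671 in placebo, 913 and 886 in E2, and 745 and 737 in EE. Within each estrogen group the samples were close, and the groups formed 3 separate steps. Cr2 fell by 0.74 ± 0.15 in E2 (adjusted p = 0.00261) and by 1.01 ± 0.15 in EE (adjusted p = 3.77e-04). The Ms4a1 membrane protein gene counted 16327 and 16499 in placebo, 12838 and 10261 in E2, and 9360 and 9632 in EE. The E2 samples were further apart here than those of the other groups. Ms4a1 fell by 0.52 ± 0.16 in E2 (adjusted p = 0.0149) and by 0.79 ± 0.16 in EE (adjusted p = 0.00139), and without E2 replicate 2 its call in E2 was lost (-0.35, adjusted p = 0.0903, with 3.14e-04 to 0.844 over all alternatives).

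Of the transcription factors, Pax5 counted 2692 and 3301 in placebo, 1522 and 1257 in E2, and 1142 and 1137 in EE. Its levels in EE were nearly equal and the lowest of the 3 groups. Pax5 was 2.15-fold lower in E2 (-1.11 ± 0.16, adjusted p = 5.71e-04) and 2.61-fold lower in EE (-1.39 ± 0.16, adjusted p = 1.38e-04). Pou2f2 counted 1772 and 2018 in placebo, 1114 and 961 in E2, and 966 and 945 in EE. The estrogen groups overlapped, and both lay below placebo. Pou2f2 was 1.83-fold lower in E2 (-0.87 ± 0.15, adjusted p = 0.00104) and 1.98-fold lower in EE (-0.98 ± 0.15, adjusted p = 3.85e-04).

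The comparison of E2 with placebo asked how these genes stand in the spleen under the natural estrogen. On the reference scale all 9 genes were called lower and 0 higher, in a comparison where 59.5% of the 457 tested genes were called lower and 12.5% higher, so the count is to be read against a panel in which most genes were lower. The median log2 fold change of the 9 genes was -0.80 against -0.56 over all tested genes, and 8 of the 9 lay below the panel's median, all but Ms4a1. Relative to the trimmed mean of the panel 4 of 9 were lower, where 21.9% of tested genes were called. These were Cd22 (-0.72, adjusted p = 0.00589), Cd79a (-0.65, 0.00648), Pax5 (-0.57, 0.0109) and Pou2f2 (-0.33, 0.0378). The others ranged from -0.26 for Blnk to 0.02 for Ms4a1, whose direction turned. On the median gene 3 of 9 were lower, against 19.0% of tested genes, and Pou2f2 lost its call there (adjusted p = 0.0557). Over all alternatives the limma adjusted p reached at most 0.00819 for Cd22 and for Cd79a, 0.0138 for Pax5 and 0.0557 for Pou2f2.

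EE was compared with the same placebo samples, so its values are not independent of those for E2. All 9 genes were again called lower on the reference scale, where 63.9% of tested genes were lower and 15.5% higher. Their median was -0.98 against -0.69 over all tested genes, and 9 of 9 lay below the panel's median. Relative to the trimmed mean of the panel 6 of 9 were lower, where 27.1% were called. These were Cd79a (-0.87, adjusted p = 0.0018), Cd22 (-0.81, 0.00263), Pax5 (-0.73, 0.00366), Cr2 (-0.36, 0.0464), Pou2f2 (-0.33, 0.0338) and Cd79b (-0.30, 0.0339). Ms4a1 at -0.14, Blnk at -0.19 and Btk at -0.09 did not pass the threshold there. On the median gene the 3 that were lower, against 21.7% of tested genes, were Cd79a, Cd22 and Pax5. Over all alternatives the limma adjusted p reached at most 0.00205 for Cd79a, 0.00322 for Cd22 and 0.0047 for Pax5. It reached 0.0699 for Cr2 and 0.0548 for Pou2f2 and for Cd79b.

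**Figure D2:**
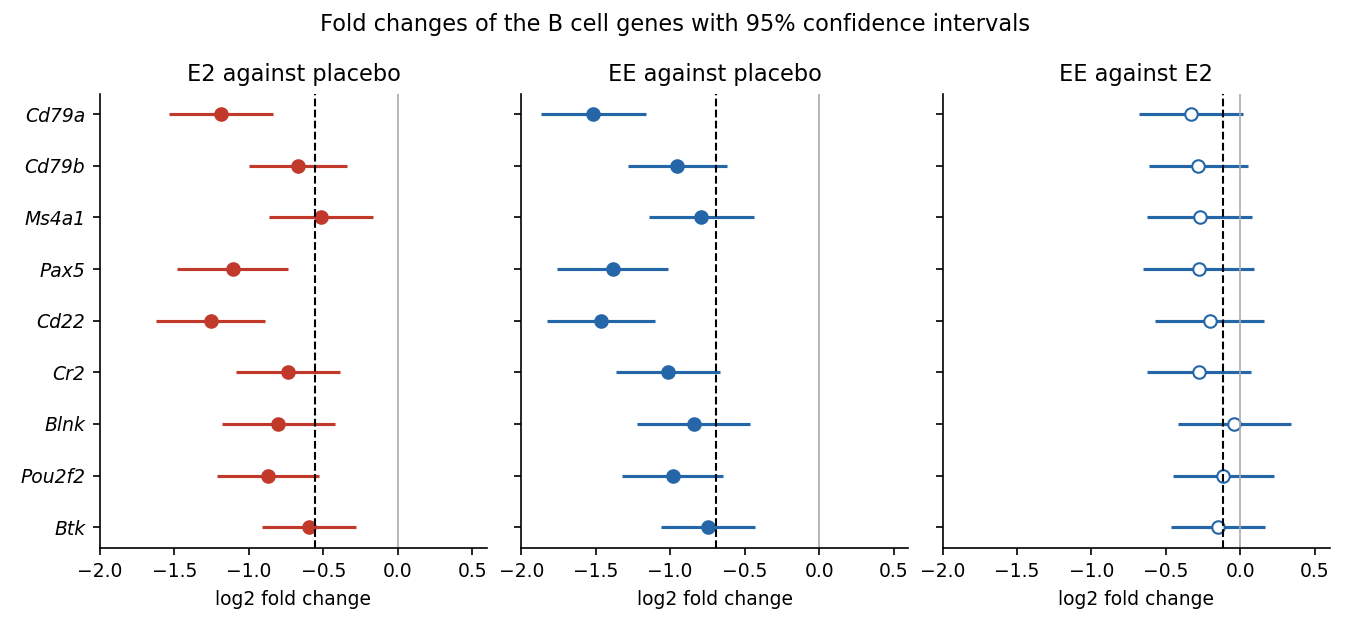
Log2 fold change of each B cell gene (horizontal axis) in the 3 comparisons, with bars for the 95% confidence interval from limma, filled points for an adjusted p under 0.05, open points otherwise, and a dashed line at the median of the 457 tested genes. All 9 points are filled in both comparisons with placebo and none is filled for EE against E2.

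**Figure D3:**
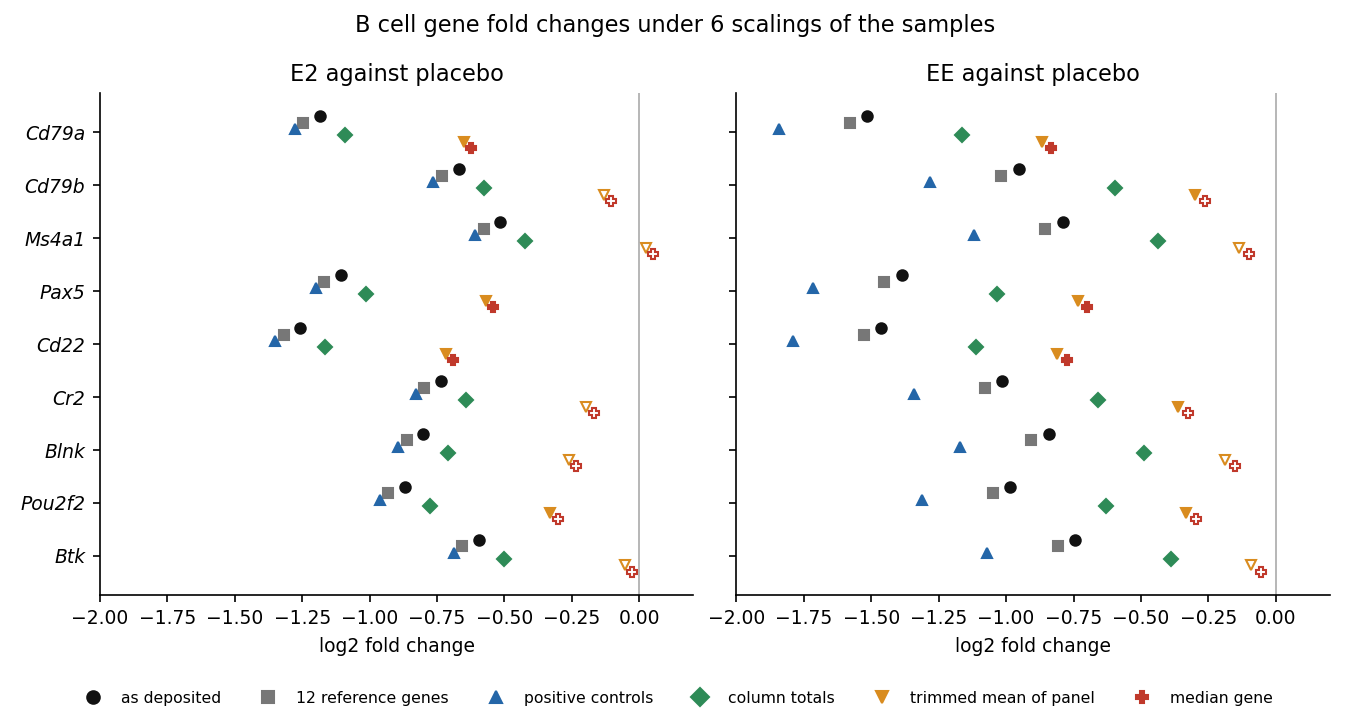
Log2 fold change against placebo of each B cell gene under 6 ways of scaling the samples, with filled symbols for an adjusted p under 0.05 and open symbols otherwise. Cd79a, Pax5 and Cd22 are filled under every scaling shown, while Ms4a1, Blnk and Btk are open when the centre of the panel is the scale. Cd79b and Cr2 are also open on the trimmed mean in E2. On the median gene all but Cd79a, Pax5 and Cd22 are open in both comparisons.

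EE and E2, which differ by the ethinyl group, were then set against each other, although no label shows that their doses matched. The 9 genes had a median log2 fold change of -0.27, against -0.11 over all tested genes. By limma 0 of 9 were called, and 0 of 9 at an unadjusted p under 0.05, where 4.60% of tested genes were called lower and 2.19% higher. Both EE samples were below both E2 samples for 7 of the 9 genes, all but Blnk and Pou2f2, as they were for 40.7% of tested genes. The largest difference was that of Cd79a (-0.33, 95% interval -0.68 to 0.02, adjusted p = 0.236), and the smallest that of Blnk (-0.04, interval -0.42 to 0.34, adjusted p = 0.891). The interval for Cd79a reaches a level 37.6% lower in EE and that for Pax5 one 36.4% lower, so the data do not show that the estrogens act alike on these genes. Cd79b (-0.28, interval -0.61 to 0.05), Ms4a1 (-0.27, -0.62 to 0.08), Pax5 (-0.28, -0.65 to 0.09) and Cr2 (-0.28, -0.63 to 0.07) had similar estimates. For Cd22 (-0.21), Btk (-0.15), Pou2f2 (-0.11) and Blnk the direction turned under at least 1 other scaling.

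Set against one another, the 9 genes had unequal fold changes, which are described here without a test. For each sample the mean log2 level of the 9 was subtracted, which removes any scaling of the sample. The 9 relative values of a sample then cancel out, so lower values for some genes require higher values for others. Cd22 then stood 0.40 lower in E2 than in placebo and 0.39 lower in EE, Cd79a 0.33 and 0.44 lower, and Pax5 0.25 and 0.31 lower, with no overlap between the estrogen and the placebo samples. Ms4a1 stood 0.34 higher in E2 and 0.29 higher in EE, Btk 0.27 and 0.33 higher and Cd79b 0.19 and 0.12 higher, again with no overlap. Cr2 overlapped with placebo in both groups, and Blnk and Pou2f2 overlapped in E2 only, standing 0.24 and 0.09 higher in EE. Of all tested genes, 17.5% were lower without overlap on this measure in E2 and 13.6% in EE, and 61.3% and 69.6% were higher. Stated as a ratio of the genes at either end of this order in E2, which adds no further evidence, the number of Cd22 counts per 100 of Ms4a1 was 5.82 and 7.24 in placebo, 3.61 and 4.17 in E2, and 3.94 and 4.18 in EE. Pax5 counts per 100 of Ms4a1 were 16.5 and 20.01 in placebo and between 11.8 and 12.3 in all 4 estrogen samples.

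**Figure D4:**
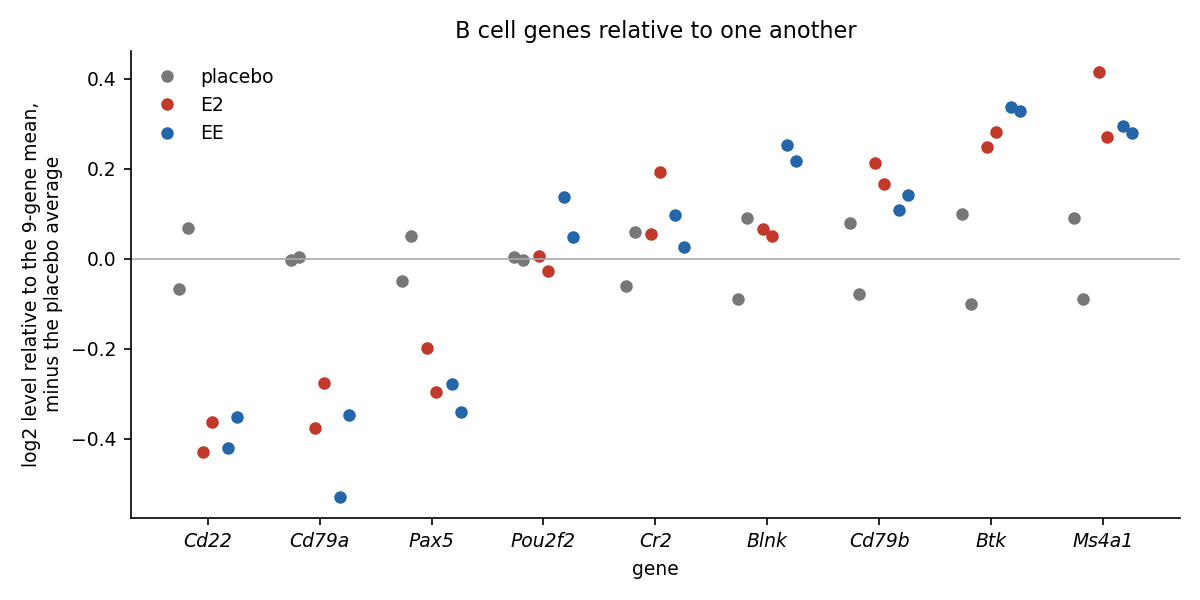
Level of each B cell gene relative to the mean log2 level of the 9 genes in the same sample, minus its placebo average, with 1 point per sample coloured by group. Cd22, Cd79a and Pax5 lie below the placebo points in all 4 estrogen samples, and Ms4a1, Btk and Cd79b lie above them.

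Other genes of the B lineage on the panel moved in the same direction with 2 exceptions. Of 14 tested, 12 were lower and 2 higher in E2 and likewise in EE, with medians of -0.71 and -0.87, where 59.5% of all tested genes were lower in E2 and 63.9% in EE. Relative to the trimmed mean of the panel 6 were lower and 2 higher in E2 and 5 and 2 in EE, where 21.9% and 27.1% of all tested genes were lower. The Ikaros family genes Ikzf3 (-0.98 in E2 and -1.20 in EE) and Ikzf1 (-0.90 and -1.09), transcription factors of lymphocyte development, and Bcl6 (-1.24 and -0.97), a factor of germinal centres, were also lower. Which cells the counts of this list came from was not tested. The exceptions were Cd24a and Tnfrsf17, and Tnfrsf17 is on the plasma cell list as well. Cd24a, which immature B cells, erythroid precursors and granulocytes also carry, counted 6658 and 4982 in placebo, 18642 and 19953 in E2, and 28163 and 27017 in EE. It rose by 1.74 in E2 (adjusted p = 6.80e-05) and by 2.26 in EE (adjusted p = 1.09e-05). Cxcr5, a receptor that guides B cells to follicles, and the inhibitory Fc receptor gene Fcgr2b had log2 fold changes of -0.32 and -0.27 in EE against E2, which did not pass the threshold (adjusted p = 0.269 and 0.308).

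Of 20 other tested genes that act in signalling from the receptor, 17 were lower and 0 higher in E2, and 18 and 0 in EE, with medians of -0.83 and -1.02, against the same 59.5% and 63.9% lower over all tested genes. Relative to the trimmed mean 8 were lower and 1 higher in E2, and 11 and 2 in EE, against 21.9% and 27.1%. Most of these genes act in T cells or myeloid cells too, Cd5 is on the T cell list as well, and Fcgr2b is on the B lineage list. Syk counted 3308 and 4093 in placebo, 1805 and 1580 in E2, and 1605 and 1594 in EE, and it fell by 1.12 and 1.20 (adjusted p = 4.97e-04 and 2.22e-04). Ptpn6, the phosphatase gene linked to Cd22, fell by 0.82 and 0.92 (adjusted p = 0.00148 and 5.58e-04), and Fcgr2b fell by 0.76 and 1.03 (0.00183 and 3.09e-04). The phosphatase gene Ptpn22 fell by 1.31 and 1.50, the Src family kinase gene Fyn by 1.12 and 1.29, and Cd5 by 1.07 and 1.46. In EE against E2, 0 of the 20 were called by limma, with Cd5 at -0.39 (adjusted p = 0.222) and Prkcd, a protein kinase C gene, at -0.24 (0.371).

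Genes of plasma cells, the antibody-secreting end of the lineage, went separate ways. Of 5 tested, 2 were lower and 1 higher in E2, where 59.5% of all tested genes were lower and 12.5% higher. In EE 2 were lower and 2 higher, where 63.9% and 15.5% of all tested genes were. Tnfrsf17, the receptor on which long-lived plasma cells depend, rose by 0.80 in E2 (adjusted p = 0.0029) and by 0.58 in EE (0.0119). Xbp1, a factor of the secretory programme that many other cells also use, rose by 0.45 in EE (0.0361) and had a log2 fold change of 0.15 in E2 (0.428). Cd27 fell by 1.17 and 1.53, where the medians of the T cell genes were -1.13 and -1.47. Which cells the counts of Cd27 came from was not tested. Irf4 fell by 0.48 and 0.73. Prdm1, which drives plasma cell differentiation, was at -0.36 in both comparisons without passing the threshold (limma adjusted p = 0.0646 and 0.0626). Relative to the trimmed mean Prdm1 was at 0.18 and 0.29 and Irf4 at 0.05 and -0.08, so that Prdm1 turned in both comparisons and Irf4 in E2.

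Among other cell types, T cell genes and natural killer (NK) and cytotoxic genes had medians further below placebo than the 9 B cell genes, a difference that was not tested. All 15 tested T cell genes were lower under both estrogens, with medians of -1.13 in E2 and -1.47 in EE. All 11 NK and cytotoxic genes were lower too, with medians of -1.54 and -1.63. Of all tested genes 59.5% were lower and 12.5% higher in E2, and 63.9% and 15.5% in EE. Relative to the trimmed mean 13 of the 15 T cell genes were lower in E2 and 15 in EE. Of the 11 NK and cytotoxic genes 11 were lower there in E2 and 9 in EE. On that scale 21.9% and 27.1% of all tested genes were lower. The T cell genes with the lowest p in E2 were Il7r (-1.94) and Cd3e (-1.53). Those of NK cells were Klra4 (-2.12) and Klra8 (-1.45), members of a family so alike that probes could count each other's transcripts. Klra4 counted 19 and 22 in E2, where the background was 10.5 and 12.6, so its fold change rests on low values. All 7 tested neutrophil genes rose in E2 (median 4.66, with Camp at 4.97 and S100a8 at 4.79) and 6 of 7 in EE (3.47). Of 8 erythroid, megakaryocyte and platelet genes 7 rose in E2 (1.82, with Tal1 at 2.79 and Tfrc at 2.58) and 8 in EE (2.79). Of 10 genes listed for monocytes and macrophages 4 were higher and 1 lower in E2, and 7 and 1 in EE (medians 0.19 and 0.73). Clec5a was at 3.51 and Itgam at 1.69 in E2. Clec5a counted 21 and 19 in placebo, where the background was 13.7 and 10.1, so its fold change rests on low values. Csf1r and C1qa of the monocyte and macrophage list were at 0.04 and 0.14 in E2. Relative to the trimmed mean they were at 0.58 and 0.68 (limma adjusted p = 0.0127 and 0.01). On that scale 9 of the 10 were higher and 0 lower under each estrogen. The split of all tested genes on that scale is given in the last section. In EE against E2, 3 of the 10 were lower and 2 higher, where 4.60% of all tested genes were lower and 2.19% higher. Clec5a (-1.01) and Itgam (-0.79) were lower there, as was the neutrophil gene S100a8 (-1.14), and C1qa (0.81) was higher. Relative to the trimmed mean 1 of the 10 was called lower and 1 higher. Clec5a (-0.90) and C1qa (0.92) kept their calls there. Itgam (-0.68) and S100a8 (-1.02) did not pass the threshold (limma adjusted p = 0.076 and 0.0843). Of the 7 neutrophil genes, 6 were called lower on the reference scale and 0 relative to the trimmed mean. Which cells these counts came from was not tested. Of 4 genes listed for dendritic cells 2 were lower under each estrogen (-0.26 and -0.31), Ccr7 (-1.21) and Itgax (-0.42) in E2. Relative to the trimmed mean 1 of the 4 was lower under each estrogen, and 1 was higher in EE. In placebo Ccr7 counted 2752 and 2940 and Itgax 334 and 376. The E2 value of Ccr7 lay near the T cell median of -1.13, and which cells its counts came from was not tested.

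**Figure D5:**
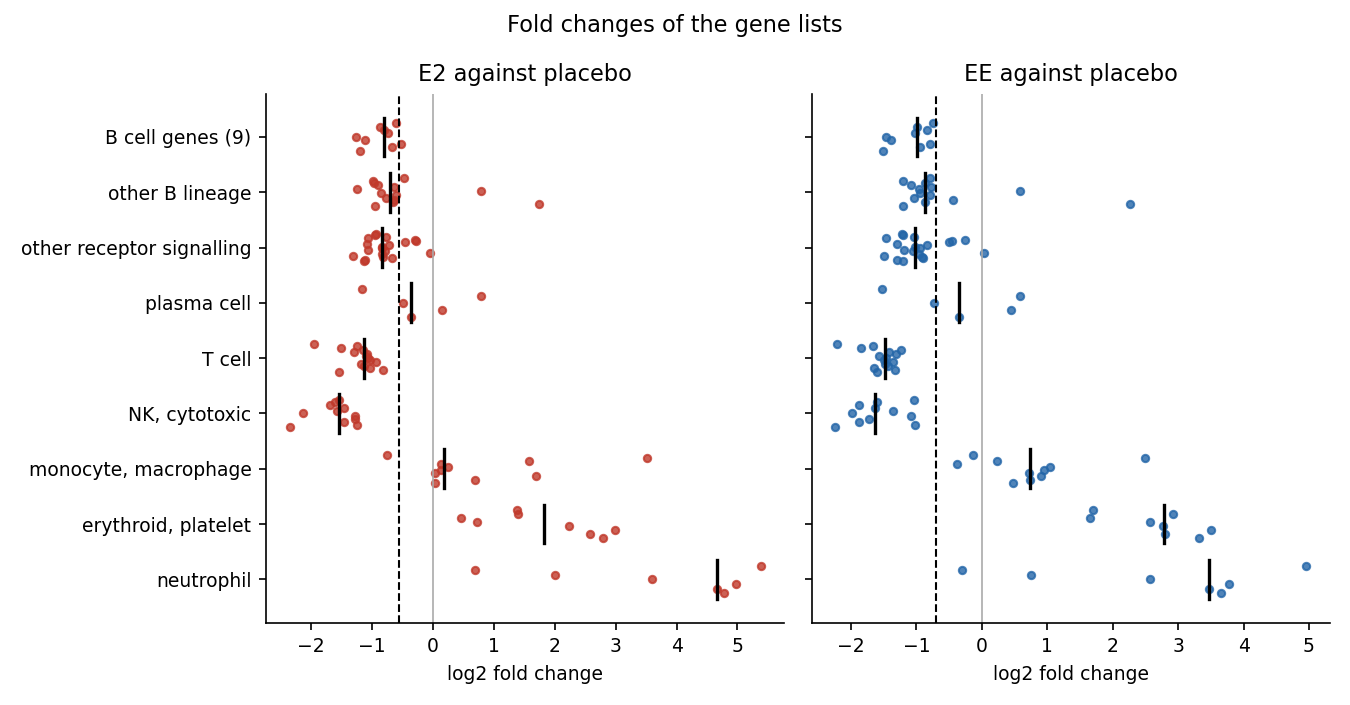
Log2 fold change against placebo (horizontal axis) of the tested genes of each list, with 1 point per gene, a black bar at the list's median and a dashed line at the median of all 457 tested genes. The 9 B cell genes run from -1.26 to -0.52 in E2 and from -1.52 to -0.74 in EE, and at their lower end they reach into the range of the T cell genes.

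The 9 genes varied together across the 6 samples, with Pearson correlations of log2 level between 0.92 and 0.996 over the 36 pairs and a median of 0.98. The 6 samples separate into estrogen and placebo samples, and the genes share the scaling of each sample. Of 448 other tested genes 183 had a correlation above 0.95 with the mean of the 9, and the median was 0.92. The most similar were Ets1 (0.999), a lymphocyte transcription factor gene that counted 9818 and 12262 in placebo and 3640 to 4858 under the estrogens, the T cell factor gene Tcf7, the co-receptor gene Cd4, the costimulatory receptor gene Icos, Fcgr2b and the T cell factor gene Runx3, each at 0.998.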

How the data were processed

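Transcripts of splenocyte RNA were counted with barcoded hybridisation probes and no amplification (nCounter), per the labels. The deposited values are a score: whole numbers that are not raw counts. Over the 12 named reference genes the geometric mean ranged over 6.07% between samples. With 2 of the 12 unnamed rows added, 14 in all as the labels count, it was level to 0.0599%, where the second best of 66 pairs gave 1.76%. Scaling on reference genes and rounding before deposit is read from this, and software and background steps are not given in the sources used here. Depth cannot be recovered from such values, so no counting interval is given.

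Symbols came from a RefSeq gene table (assembly GRCm38.p6) through transcript identifiers without versions, which named 549 of 561 gene rows. The 14 spiked-in controls (6 positive, 8 negative) held 2.82% to 4.71% of each sample and stayed out of tests. Genes with a mean of at least 20 were tested, 457 of 561. limma 3.58.1 (R 4.3.3) was fitted to log2(value + 1) with group means over all 6 samples, 3 residual and 5.93 prior degrees of freedom, and a two-sided Benjamini-Hochberg adjusted p under 0.05 over all tested genes. Fold changes are on that log2 scale. A count model had been planned for raw counts and was replaced because the values are normalised. The trimmed-mean scale is the mean log2 ratio after trimming 30% of genes at each end. The fit was tested on simulated data.

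The 9 genes, the gene lists and the motifs were chosen with earlier results of these data known. Named beside the 9 were up to 4 genes with the lowest p per comparison of the lists of other B lineage, receptor signalling and plasma cell genes, some fixed genes (Cd24a, Syk, Ptpn6, Fcgr2b), the 6 genes most correlated with the mean of the 9, and the 2 with the lowest p in E2 of each cell type list. Csf1r and C1qa were named outside this rule. A further gene that this rule names is not reported here. Every value column belonged to a sample.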

Additional observations from a re-analysis of the deposited data

How the results depend on the processing

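The count of the 9 genes called lower was 9 in both comparisons with placebo and moved by more than 1 gene only with scaling on the centre of the panel. For E2 it was 4 with a trimmed mean, 4 with a trimmed mean without S100a8, S100a9 and Camp, and 3 on the median gene, and for EE it was 6 under both trimmed means and 3 on the median gene. It stayed at 9 on the 12 named reference genes, column totals and positive controls, with a pseudocount of 10, no filter or a filter at 50, negative controls subtracted, only the groups compared, a threshold of 0.1 and a prior that depends on the mean level, the last chosen after seeing the data. On positive controls 1 of the 12 reference genes was lower in E2 and 5 in EE, against 1 and 2 as deposited. The shares of all tested genes called lower under these settings are not given here. The count of 9 is therefore not set against the panel there. Leaving out each sample in turn gave 8 to 9 for E2 and 9 for EE. For EE against E2 the count was 0 under all 19 alternatives. Cd79a, Pax5 and Cd22 were called in 19 of 19 alternatives in both comparisons with placebo. Over the scalings, the median of the 9 ranged from -0.89 to -0.23 in E2 and from -1.31 to -0.30 in EE. All tested genes had a median of 0.0057 in E2 on the median gene, and in EE against E2 of 0.0066 on that scale and 0.15 with column totals, of which the first scale is built to centre the median gene. Ms4a1 turned in E2 to 0.024 and 0.030 with the trimmed means and to 0.051 on the median gene. In EE against E2 Blnk turned to 0.073 and 0.074 under the trimmed means, 0.081 on the median gene and 0.22 with column totals, and ranged from -0.14 to 0.057 when a sample was left out, with the high value without E2 replicate 1. Pou2f2 turned to 0.0069 on the median gene and 0.15 with column totals, Cd22 to 0.054 and Btk to 0.11 with column totals, and the cause of these turns was not tested. The split of all tested genes into lower and higher was 272 and 57 in E2 and 292 and 71 in EE, against 100 and 120, and 124 and 131, with the trimmed mean, and in EE against E2 it was 21 and 10 against 1 and 8. The planned count models and their scaling were not run, since the values are not raw counts. No paired analysis was possible because the groups share no replicate number. With 2 samples a group, the spread of a single gene is poorly known and rests on the prior shared by all genes.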
